A study of Rattus norvegicus with 40 samples.

Results

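The uninjured right common carotid artery of rats whose left artery had been balloon-injured and covered with tPA gel was compared with the carotid artery of sham-operated rats, 1 day after the operation. The members were chosen by their labels alone: 3 arrays of right arteries of tPA-treated rats and 4 arrays of sham-operated rats, together 7 of the 40 arrays of the series. The array labelled right tPA day 1 replicate 2 resembled injured arteries in many genes, so the counts, the genes that passed and the gene lists are given with and without it. Leaving it out rested on the values tested here, and p-values without it do not allow for that choice. Left tPA day 1 replicate 2 in turn read like uninjured arteries in some of these genes. Whether these 2 arrays carry each other's labels was not tested, and if they did, the means with replicate 2 would hold an injured artery.

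All rats were male Wistar-Kyoto rats aged 3 months, and each array carried total RNA of a pool of vessels from 3 rats, so the p-values measure the spread between pools. In the tPA group, recombinant tissue-type plasminogen activator (tPA) was given at 20 nmol/kg in Pluronic gel, a carrier, onto the outer side of the left artery after the injury, and the right artery of the same rats was neither injured nor treated. Rats of the right gel group had the same injury and plain gel. The sham arrays held left arteries of rats with a sham operation, and 6 arrays held arteries of intact rats. Right arteries from tPA-treated rats thus differed from the sham arteries in side, in the injury of the opposite artery and in the agent, and these cannot be told apart in this comparison. Right gel arteries, which share the side and the injury, were used as the second comparison, with 3 arrays.

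Tissue-type plasminogen activator is a serine protease that cleaves plasminogen, and the plasmin so formed dissolves fibrin and acts on matrix proteins and latent growth factors. Its activity is limited by serpin inhibitors, and the related urokinase acts at the cell surface through its receptor. The wall of a rat carotid artery is mostly smooth muscle, lined by endothelium and wrapped in an adventitia with fibroblasts, nerve fibres, resident macrophages and fat. Arteries also hold a circadian clock, a transcriptional loop that sets many genes by the time of day.

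Arrays of both groups showed the markers of an arterial wall. The intensity of Acta2, the smooth muscle actin, was 6194.8, 6581.3 and 6217.0 in right tPA arteries and 6299.6 to 6799.3 in sham arteries. Every array had been scaled to one trimmed mean (500.3 to 500.8), and precision is limited by how few arrays there are. The median intensity was 127.3 to 146.6 in right tPA and 103.8 to 131.2 in sham arrays, and the median log2 difference of the probe sets tested was 0.14. That median was -0.13 with the arrays scaled to one median and -0.02 with quantile normalization. Dim probe sets lay mostly above 0 (73.2% of the 1166 dimmest, median 0.32) and bright ones mostly below it (35.3% of the 1166 brightest above 0, median -0.15). The direction of a gene list can therefore depend on how bright its genes are. Only the ribosomal protein list is set beside genes of like brightness below. The other lists stand beside all genes and, for most, are also given after scaling to one median. The 3′ to 5′ signal ratio of Gapdh, a measure of RNA and cDNA length, was 2.48 to 6.39 in right tPA and 7.53 to 10.3 in sham arrays (two-sided exact permutation p = 0.0571, the smallest that 3 against 4 arrays allow, adjusted p = 0.38 over 10 tests), and its part in the results was not tested.

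The sham arrays formed 2 pairs. The SD of the log2 differences was 0.489 between sham replicates 1 and 2 and 0.532 between replicates 3 and 4, against 0.732 to 0.787 across these pairs and 0.894 to 1.025 between right tPA arrays. Whether the arrays of a pair were independent was not tested, and results are also given with each pair averaged.

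Right tPA arteries differed from sham arteries in few probe sets. Of 5827 tested, 10 passed at an adjusted p of 0.05 (limma with Benjamini-Hochberg adjustment), 6 higher (0.103%) and 4 lower (0.0686%) in the right tPA arteries, or 0.172% of all. The 4 lower ones were all named: Cyp2c11, Rnase1, Igfbp5 and Cox4i2. Among the 6 higher ones were Enpp3 and one of the probe sets of Thy1, while the other 4 stay unnamed here or were paired with several genes. Without right tPA replicate 2, 5 passed (0.0858%), 4 higher (0.0686%) and 1 lower (0.0172%), and 3 of these were among the 10. Only Cyp2c11 passed when each sham pair was averaged. Counted by genes through their brightest probe set, 5 of 3546 passed (0.141%), and 3 without replicate 2 (0.0846%). With the arrays scaled to one median, 3 were higher and 15 lower, and without right tPA replicate 2 the same scaling gave 2 higher and 6 lower. At an unadjusted p under 0.05, 652 probe sets passed (11.2%). Leaving out sham replicates 1, 2, 3 and 4 in turn left 8, 2, 2 and 2 passing, and leaving out right tPA replicates 1, 2 and 3 left 3, 5 and 5.

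**Figure D1:**
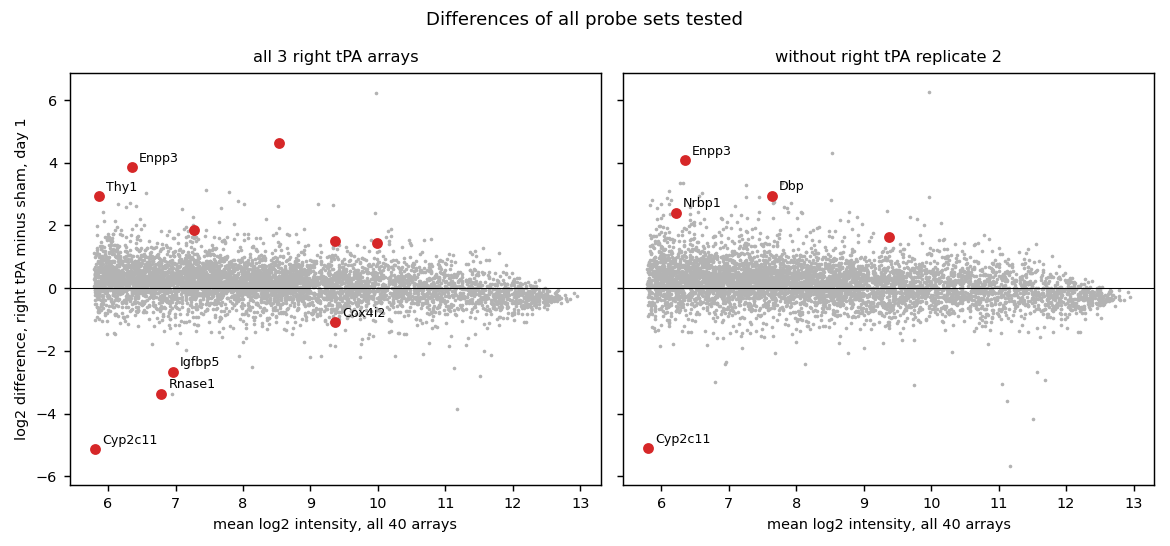
Log2 difference between right tPA and sham arteries on day 1 (y axis) against the mean log2 intensity over all 40 arrays (x axis) for the 5827 probe sets tested, with all 3 right tPA arrays on the left and without replicate 2 on the right. Red points passed an adjusted p of 0.05 and carry a gene symbol where the annotation gives 1; the cloud tilts from above 0 among dim probe sets to below 0 among bright ones.

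Cyp2c11, a cytochrome P450 best known as a male-specific steroid hydroxylase of rat liver, had the largest fall of the named genes. Its intensity was 14.7, 26.5 and 34.9 in right tPA arteries and 566.9, 539.2, 1804.3 and 1676.0 in sham arteries. The groups were far apart, and the 2 sham pairs also differed from each other. The level in right tPA arteries was 35.2-fold lower (log2 difference -5.14, SE 0.62, 95% interval of the fold 14.7 to 84.5, adjusted p = 8.19e-06), and without replicate 2 the difference was -5.10 (SE 0.71, adjusted p = 0.00023). It passed when any 1 of the 7 arrays was left out (highest adjusted p = 0.000326). In right gel arteries the intensity was 43.0, 10.4 and 63.0, and in intact arteries it ran from 15.1 to 121.9. The sham arteries thus stood above every other of these groups: they were higher than intact arteries by 4.19 on the log2 scale (adjusted p = 6.2e-06), and right gel arteries were lower than them by a difference of -4.62 (adjusted p = 8.31e-05). These comparisons share the 4 sham arrays. Over all probe sets, 0.927% passed between right gel and sham arteries and 0.944% between sham and intact arteries.

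Rnase1, a secreted ribonuclease that degrades extracellular RNA, read 69.1, 21.9 and 41.3 in right tPA arteries against 456.4, 395.8, 410.0 and 420.9 in sham arteries. The sham arrays were close to each other, and no right tPA array reached them. The fall was 10.4-fold (log2 difference -3.37, SE 0.59, adjusted p = 0.00689). Without right tPA replicate 2, where Rnase1 was at the lower limit of measurement, the difference was -2.98 and no longer passed (adjusted p = 0.0664). Right gel arteries gave 87.8, 36.2 and 123.6, and their difference from sham was -2.52 (adjusted p = 0.025). Against intact arteries, which ran from 51.1 to 497.5, right tPA arteries were lower by a difference of -2.28 (adjusted p = 0.0419).

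Igfbp5, which binds insulin-like growth factors and modulates their action on smooth muscle, read 105.2, 57.3 and 108.8 in right tPA arteries and 503.4, 498.0, 635.9 and 567.7 in sham arteries. The fall was 6.31-fold (log2 difference -2.66, SE 0.57, adjusted p = 0.0272) and -2.36 without replicate 2 (adjusted p = 0.133). The call was lost when any 1 of the 7 arrays was left out, with adjusted p from 0.0636 to 0.133. Intact arteries (36.1 to 175.4) and right gel arteries (125.2, 192.5 and 39.3) all lay below every sham array, as right tPA arteries did, and sham arteries were higher than intact ones by 2.81 (adjusted p = 0.000557).

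Cox4i2, an isoform of subunit 4 of cytochrome c oxidase in the respiratory chain, had a smaller fall that did not follow the same order of groups. Its intensity was 356.1, 462.8 and 396.8 in right tPA arteries and 899.4, 871.3, 814.7 and 815.1 in sham arteries. The groups did not overlap, and the fall was 2.11-fold (log2 difference -1.08, SE 0.23, adjusted p = 0.0272), or -1.18 without replicate 2 (adjusted p = 0.0664). Leaving out any 1 array ended the call, with adjusted p from 0.0619 to 0.153. Right gel arteries (625.2, 1048.8 and 996.1) and intact arteries (613.9 to 809.8) read above all 3 right tPA arrays as well. The differences were -1.11 from right gel arteries (adjusted p = 0.114) and -0.80 from intact arteries (adjusted p = 0.0746), neither of which passed. Injured left arteries gave 553.0, 430.9 and 575.5 with gel and 532.9, 492.5 and 523.5 with tPA.

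Enpp3, a surface enzyme that hydrolyses extracellular nucleotides and is a marker of basophils and mast cells, had the largest rise of the named genes that passed. Right tPA arteries read 1004.6, 311.6 and 256.3, and sham arteries 61.9, 22.8, 21.4 and 20.9. The lowest right tPA array was above the highest sham array, while 3 of the 4 sham arrays were at the lower limit of 23.3. The rise was 14.5-fold (log2 difference 3.86, SE 0.72, adjusted p = 0.0121), and without replicate 2 the difference was 4.09 (adjusted p = 0.0308). The call was lost without sham replicate 2, 3 or 4 (adjusted p = 0.0506, 0.0616 and 0.0602) and without right tPA replicate 1 (0.107). Intact arteries ran from 12.1 to 65.3, and right tPA arteries were above them by 3.93 (adjusted p = 0.00379). Right gel arteries read 182.4, 125.9 and 102.1, between the other groups, and neither differed from right tPA arteries (1.70, adjusted p = 0.454) nor from sham arteries (2.16, adjusted p = 0.198) beyond the threshold.

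Thy1, a surface glycoprotein of neurons, fibroblasts and thymocytes, was read by 2 probe sets, both above sham, of which 1 passed. The dimmer one read 298.0, 213.8 and 89.9 in right tPA arteries and lay below the lower limit in all 4 sham arrays, so that its level was at least 7.68-fold higher (adjusted p = 0.0184, and 0.0798 without replicate 2). The call was also lost without sham replicate 2, 3 or 4 (adjusted p = 0.0646, 0.0616 and 0.0602) and without right tPA replicate 1 (0.13). The brighter probe set read 1795.7, 4567.1 and 1847.9 against 579.7, 631.7, 1409.1 and 1420.4, again with no overlap, but its difference of 1.42 did not pass (adjusted p = 0.515). Right gel arteries were low in both, with 29.8, 14.5 and 23.0 in the dimmer probe set and 190.1, 200.1 and 291.6 in the brighter one.

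**Figure D2:**
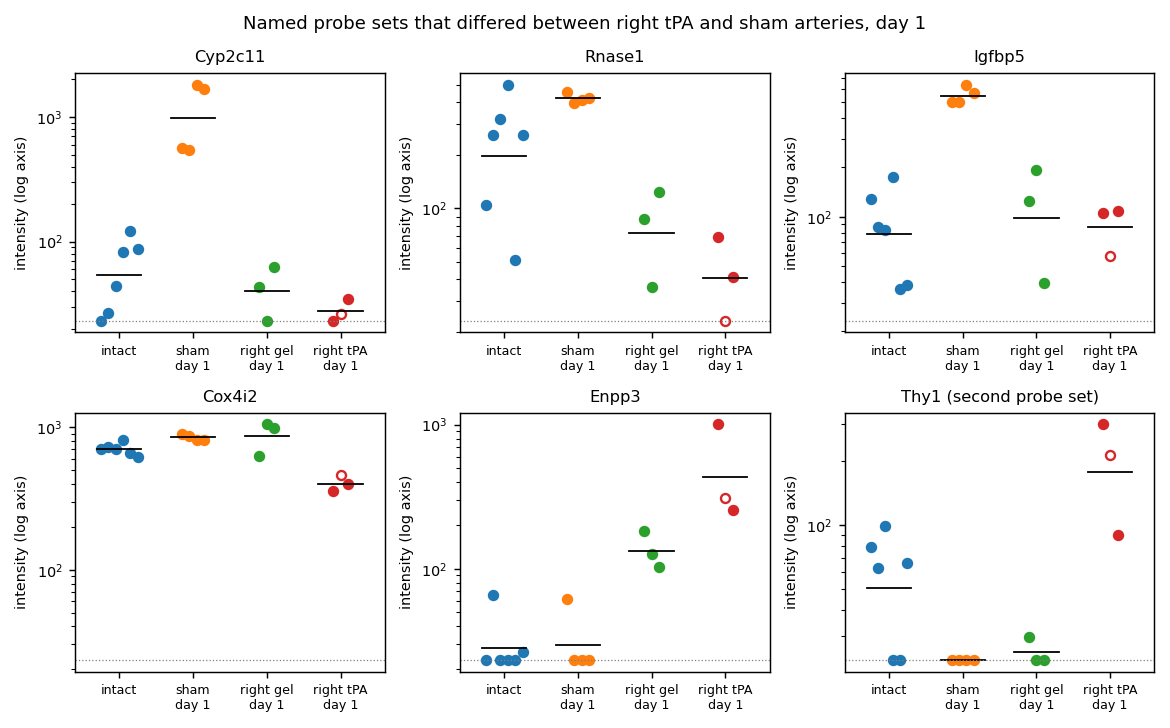
Intensity per array on a log axis in intact, sham, right gel and right tPA arteries for the 6 probe sets with 1 gene name that passed between right tPA and sham arteries; each point is an array, the open circle is right tPA replicate 2, bars are means of log2 values and the dotted line is the lower limit of 23.3. Among the groups drawn, sham arteries alone were high in Cyp2c11 and Igfbp5, whereas right tPA arteries alone were low in Cox4i2. Injured left arteries, not drawn, were also low in Cox4i2.

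The unnamed probe sets that rose included rc_AI014135_g_at, with 519.1, 908.7 and 445.2 in right tPA arteries and 26.5, 15.6, 6.6 and 11.4 in sham arteries (difference 4.63, adjusted p = 0.0184). Intact arteries read 346.0 to 2684.6 there, so that the sham arteries were the low group. AF025308_f_at read 1379.6, 919.2 and 1091.5 in right tPA arteries and 332.1 to 471.5 in sham arteries, and passed with all arrays (1.5, adjusted p = 0.0184) and without replicate 2 (1.64, adjusted p = 0.0421). With all arrays it was lost without sham replicate 2, 3 or 4 or right tPA replicate 1 or 3, and rc_AI014135_g_at passed only without sham replicate 1 when single arrays were left out. The differences of the 2 probe sets paired with several genes were 1.85 and 1.45 (adjusted p = 0.0203 and 0.0272), and neither passed without replicate 2 (0.0798 and 0.21).

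Without right tPA replicate 2, Nrbp1 and one probe set of Dbp joined Cyp2c11, Enpp3 and AF025308_f_at. In both added genes replicate 2 stood apart from replicates 1 and 3, and leaving it out raised the difference. These added calls are thus not independent of the choice to leave it out. Nrbp1, an adaptor protein related to kinases, read 266.4 and 326.5 in right tPA replicates 1 and 3, 68.3 in replicate 2 and 62.2, 47.8, 53.2 and 62.4 in sham arteries. Its difference was 1.69 with all arrays (adjusted p = 0.128) and 2.40 without replicate 2 (SE 0.47, adjusted p = 0.0266). That call was lost without sham replicate 2, 3 or 4 (adjusted p = 0.0849, 0.0887 and 0.056), and without right tPA replicate 1 or 3 (0.228 and 0.152). Right gel arteries stayed at 45.6 to 70.3, and intact arteries spread from 56.4 to 403.1. Replicates 1 and 3 were thus above all right gel arrays but inside the range of intact arteries.

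Of the 10 circadian clock genes tested, the 4 with the smallest p set right tPA replicates 1 and 3 apart from sham arteries, with Bmal1 below sham and Nr1d1, Nr1d2 and Dbp above it. The other 6 did not follow as a group: without replicate 2, Bhlhe40 (0.92) and Csnk1d (0.69) were above 0, Per2 (-0.05), Tef (0.14) and Hlf (0.0) near it and Bhlhe41 (-0.82) below it, with 0 passing. In the known loop, Bmal1 with its partner Clock binds E-box elements and switches on Nr1d1, Nr1d2 and Dbp, and the repressors Nr1d1 and Nr1d2 bind RORE elements and switch Bmal1 off. The promoters of Bmal1 and Nr1d1 are shown because they hold these elements in the RefSeq sequences of rat build GRCr8, 5′ to 3′ in the direction of the gene, with the element in capitals. The Bmal1 stretch is chr1:176766208-176766327 on the plus strand and ends 1 base before the annotated start, and the Nr1d1 stretch is chr10:84229575-84229694 on the minus strand, upstream of 1 of its 2 annotated starts.
Bmal1: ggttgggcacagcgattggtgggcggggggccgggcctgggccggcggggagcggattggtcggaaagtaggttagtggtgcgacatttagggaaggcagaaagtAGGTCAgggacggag
Nr1d1: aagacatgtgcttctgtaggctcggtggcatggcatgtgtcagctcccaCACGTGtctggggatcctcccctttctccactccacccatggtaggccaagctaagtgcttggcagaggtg
The RORE core AGGTCA began 15 bases before the start of Bmal1, and the E-box CACGTG began 191 bases before that start of Nr1d1. Over windows of 250 bases before to 50 bases after a start, on both strands, AGGTCA occurred in 16.2% and CACGTG in 6.42% of 33469 rat promoters, so that a match is a description of these letters and not a site of binding. Of the 10 clock genes tested, 8 had such a window, 2 held AGGTCA (Bmal1 and Nr1d2) and 4 held CACGTG (Bhlhe40, Bhlhe41, Nr1d1 and Tef).

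Bmal1 read 148.4, 548.5 and 260.2 in right tPA arteries and 656.7, 896.2, 1104.5 and 697.0 in sham arteries, and replicates 1 and 3 were below every sham array while replicate 2 was nearer to them. Its log2 difference was -1.57 (SE 0.47, adjusted p = 0.172) and -2.06 without replicate 2 (SE 0.51, adjusted p = 0.0798). The dimmer probe set of Bmal1 read 171.0, 192.4 and 103.8 against 251.4, 307.9, 283.4 and 234.3, and there replicate 2 was close to replicate 1. Its differences were smaller, -0.83 (adjusted p = 0.522) and -1.01 without replicate 2 (adjusted p = 0.56). Nr1d1 read 1021.5, 221.2 and 575.2 against 260.6, 223.9, 189.1 and 289.3, a difference of 1.09 (adjusted p = 0.299) and of 1.69 without replicate 2 (adjusted p = 0.0798). Replicate 2 was the array within the sham range. The dimmer probe set of Nr1d1 kept this order, with differences of 1.73 (adjusted p = 0.236) and 2.43 without replicate 2 (adjusted p = 0.099). Nr1d2 read 1475.3, 199.0 and 480.3 against 107.5, 193.7, 178.9 and 164.4, with differences of 1.73 (adjusted p = 0.262) and 2.42 (adjusted p = 0.123).

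Dbp, a transcription factor of the clock's output, read 1215.1, 207.5 and 1485.7 in right tPA arteries and 300.8, 247.0, 308.2 and 301.7 in sham arteries in its brighter probe set. The difference was 1.32 (adjusted p = 0.398), and 2.22 without replicate 2 (adjusted p = 0.0963). Its dimmer probe set read 485.2, 16.4 and 320.3 against 36.7, 79.9, 46.3 and 49.6, and passed without replicate 2 (2.95, SE 0.50, adjusted p = 0.00471), although not with it (1.59, adjusted p = 0.323). That call was lost when right tPA replicate 1 was left out as well (adjusted p = 0.266).

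The sham arteries stood apart from intact ones in the same 4 genes. Intact arteries read 25.5 to 110.4 for Bmal1, 494.6 to 893.3 for Nr1d1, 490.5 to 1689.2 for Nr1d2 and 2409.5 to 4419.0 for Dbp. Sham minus intact was 3.86 for Bmal1, -1.42 for Nr1d1, -2.82 for Nr1d2 and -3.56 for Dbp, and all 4 passed (adjusted p = 1.97e-07, 0.0298, 0.00103 and 1.91e-05). Right tPA arteries lay between both groups in Bmal1, with a difference of 2.29 from intact arteries (adjusted p = 0.00842). In Dbp their mean lay between, with -2.23 from intact arteries (adjusted p = 0.0418), while right tPA replicate 2 read below every sham array. Right gel arteries gave 156.9, 207.7 and 232.7 for Bmal1 and 594.5, 952.8 and 325.4 for Dbp, and right tPA minus right gel was 0.49 and 0.34 (adjusted p = 0.776 and 0.887). The time of day at which arteries were taken is not given in the sources used here, and its part in these values was not tested. Of the 10 clock genes, 0 passed by their brightest probe set against sham in either fit. Their median difference was 0.46 (0.41 without replicate 2), against 0.12 (0.11) over all 3546 genes. With the arrays scaled to one median it was 0.19 (0.12), against -0.15 (-0.18).

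**Figure D3:**
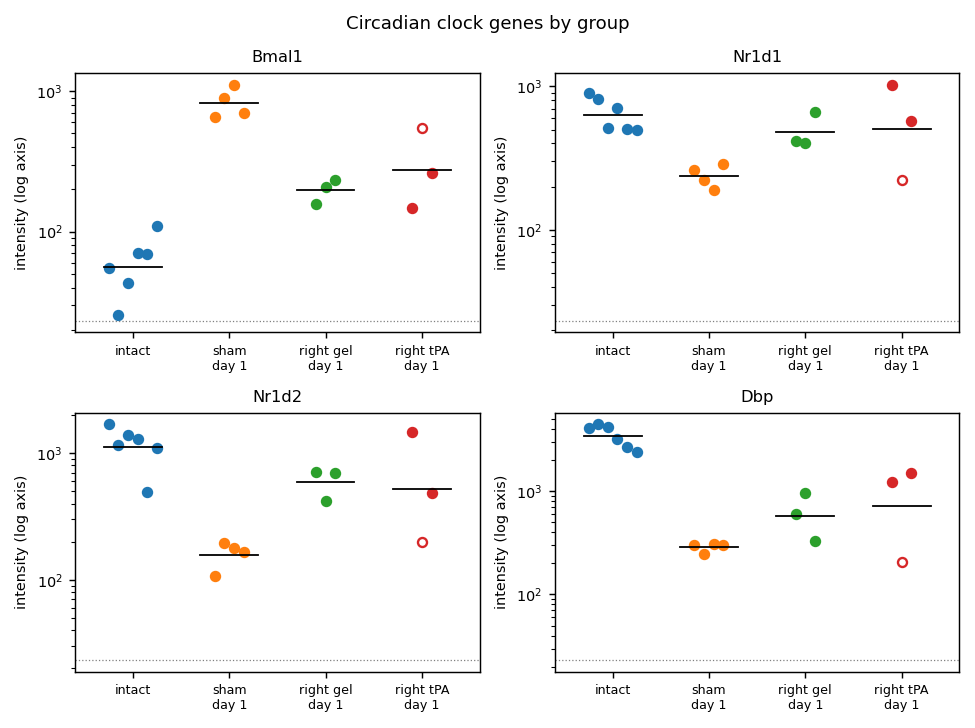
Intensity per array on a log axis for Bmal1, Nr1d1, Nr1d2 and Dbp in intact, sham, right gel and right tPA arteries on day 1, with right tPA replicate 2 as an open circle, bars at the mean of log2 values and the lower limit of 23.3 as a dotted line. Right tPA replicates 1 and 3 lie beyond the sham arrays in all 4 genes, toward the intact arteries, and replicate 2 lies near or among the sham arrays.

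The gene of the applied protease itself, Plat, read higher in right tPA than in sham arteries on every array without passing the test. Its intensity was 1212.9, 1424.8 and 971.1 in right tPA arteries and 498.1, 692.3, 661.5 and 458.2 in sham arteries. The difference of 1.06 (SE 0.39, adjusted p = 0.296) was 0.93 without replicate 2 (adjusted p = 0.478). Right gel arteries read 451.9, 725.0 and 947.3, also below all 3 right tPA arrays, and that difference was 0.81 (adjusted p = 0.538). The array measured the rat gene, and whether the probes could read any RNA other than that of the artery was not tested.

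Urokinase and its receptor did not share this order. Plau, which encodes urokinase, read 272.5, 1044.9 and 292.2 in right tPA arteries against 243.1, 322.2, 317.8 and 330.0, and Plaur, its receptor, read 145.5, 923.8 and 272.4 against 268.4, 190.7, 229.5 and 189.5. Only replicate 2 was above the sham range by far in both genes. Their differences were 0.54 and 0.61 with all arrays and turned to -0.09 and -0.13 without replicate 2, and none passed. Serpine2, which encodes a serpin inhibitor of both activators, read 95.9, 89.7 and 15.7 in right tPA arteries and 174.6, 156.6 and 208.5 in right gel arteries (difference -1.61, adjusted p = 0.236). Of the 17 genes tested from the plasminogen and coagulation list, 0 passed, 11 were above 0 (median 0.13) and 8 without replicate 2 (-0.03), and Plat, Tfpi and Pros1 were the 3 with no overlap above sham, where 10.1% of all genes had such an order. Tfpi, an inhibitor of the tissue factor pathway, read 154.8, 272.0 and 132.7 against 60.1 to 86.1 in sham arteries (1.22, adjusted p = 0.312).

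Of the 25 gene lists examined, the growth factor list held the only gene that passed in the main comparison, Igfbp5, so the other lists are described by counts, medians and the number of genes whose 2 groups did not overlap. Over all genes, 60.5% lay above 0 (58.5% without replicate 2), 10.1% lay wholly above sham and 5.87% wholly below it. Without replicate 2, which leaves 2 arrays and makes such an order more frequent, the shares were 16.9% and 10.3%. The median difference of all genes was 0.12 (0.11 without replicate 2), and -0.15 (-0.18) after scaling to one median. That scaling thus lowered all lists, and list medians given after it are to be read beside these values and not beside 0. In bulk RNA, fewer cells of a type and less RNA per cell cannot be told apart.

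Macrophage and monocyte genes read above sham in 9 of 10 genes tested, with a median of 0.73. Of these, 5 lay wholly above sham: Ctss, Lgals3, Cd14, Csf1r and Lyz2. Ctss, the lysosomal protease cathepsin S, was the steadiest, with 5692.8, 4971.5 and 5817.7 against 2339.3, 2488.2, 2549.1 and 2299.6 (difference 1.18, SE 0.35, adjusted p = 0.171, and 1.25 without replicate 2, adjusted p = 0.226). Right gel arteries read 2283.1, 1313.2 and 3391.8, and intact arteries 1221.2 to 4159.1, from which right tPA arteries differed by 1.42 (adjusted p = 0.0395). Cd14, a receptor for bacterial lipopolysaccharide, read 641.1, 1235.4 and 477.3 against 328.6 to 359.4 (1.07, adjusted p = 0.355). Without replicate 2 the list's median was 0.37, and 8 of 10 remained above 0. With the arrays scaled to one median the list's median was 0.47, and 0.08 without replicate 2, against -0.15 and -0.18 over all genes.

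Endothelial genes were above sham in 9 of 12, with a median of 0.47 (0.50 without replicate 2, and 0.21 after scaling to one median in both fits). Icam1, an adhesion molecule for leukocytes, read 1440.3, 1436.0 and 1802.5 in right tPA arteries against 555.3, 567.1, 1245.3 and 1168.4 (0.91, adjusted p = 0.225). The sham pairs differed from each other more than the upper pair differed from the right tPA arteries. Esm1, an endothelial proteoglycan of sprouting vessels, read 435.0, 2874.9 and 222.4 against 148.8 to 187.6, with replicate 2 the highest by far. Pecam1, a general endothelial marker, was 124.8, 86.5 and 88.3 against 74.4 to 111.8.

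Smooth muscle genes lay mostly below sham with all arrays but were nearly evenly split without replicate 2. Of the 19 contractile genes, 6 were above 0, the median was -0.24, and 5 lay wholly below sham, with 0 passing. Without replicate 2, 9 were above 0 with a median of -0.09, and 2 lay wholly above and 6 wholly below sham. Against right gel arteries 3 were above 0 (median -0.445), and 5 without replicate 2 (-0.121). Myh11, the smooth muscle myosin heavy chain, read 5923.4, 2815.2 and 5839.7 against 4237.3 to 6094.0, and replicate 2 was the low array. Gucy1a1, a subunit of the nitric oxide receptor, read 1823.2, 1570.3 and 1931.6 against 2556.6 to 3210.5 (-0.71, adjusted p = 0.436). Tagln, which encodes an actin-binding protein, read 2715.2, 3167.0 and 127.5 against 4003.8 to 4797.8, so that replicate 3 set most of its difference of -2.12 (adjusted p = 0.322). The list's median was -0.50 after scaling to one median and -0.10 after quantile normalization, and 0.05 by the latter without replicate 2, where its direction turned.

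Markers of tissues next to the artery spread widely among the right tPA arrays. The mean centred log2 intensity of the nerve and Schwann cell list was 1.2, -0.56 and 0.56 in right tPA replicates 1, 2 and 3, and -0.74, -0.76, 0.15 and 0.35 in the sham arrays, which again split by pairs. Mbp, a myelin protein, read 2026.0, 36.5 and 121.2 against 25.3 to 130.9, and Uchl1, an abundant neuronal protein, 499.1, 230.0 and 279.7 against 66.1 to 170.4 (1.62, adjusted p = 0.225). Of the 21 nerve genes, 18 were above 0 in both fits, with medians of 0.71 and 0.94 (0.44 and 0.65 with the arrays scaled to one median) and 0 passing.

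Skeletal muscle genes were above 0 in 24 of 27, with a median of 0.76 (0.49 with the arrays scaled to one median), and in 25 without replicate 2, with a median of 0.85 (0.56). Replicate 3 was the highest array. That list's mean was -0.60, -0.11 and 1.61 in right tPA replicates 1, 2 and 3 and -0.86 to -0.41 in sham arrays. Myh4, a fast muscle myosin, read 73.6, 281.1 and 3720.0 against 9.0 to 87.4. Without replicate 3, its difference from sham was 1.5, and those of Tnnc2 and Atp2a1 were 1.41 and 0.48. With replicate 1 as the only right tPA array, Tnnc2 and Atp2a1 differed by -0.08 and -0.06. For the adipocyte list the mean was 0.38, -0.09 and 0.61 against -0.38 to 0.36, with 10 of 16 genes above 0. The median was 0.18, and -0.09 after scaling to one median, where that of all genes was -0.15. Without replicate 2, 11 were above 0 with a median of 0.60 (0.31 after that scaling), and 6 lay wholly above sham. Ucp1, the uncoupling protein of brown fat, read 392.6, 121.4 and 430.7 against 71.5 to 94.8 (1.73, adjusted p = 0.456). The part of neighbouring tissue in the other differences was not tested.

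**Figure D4:**
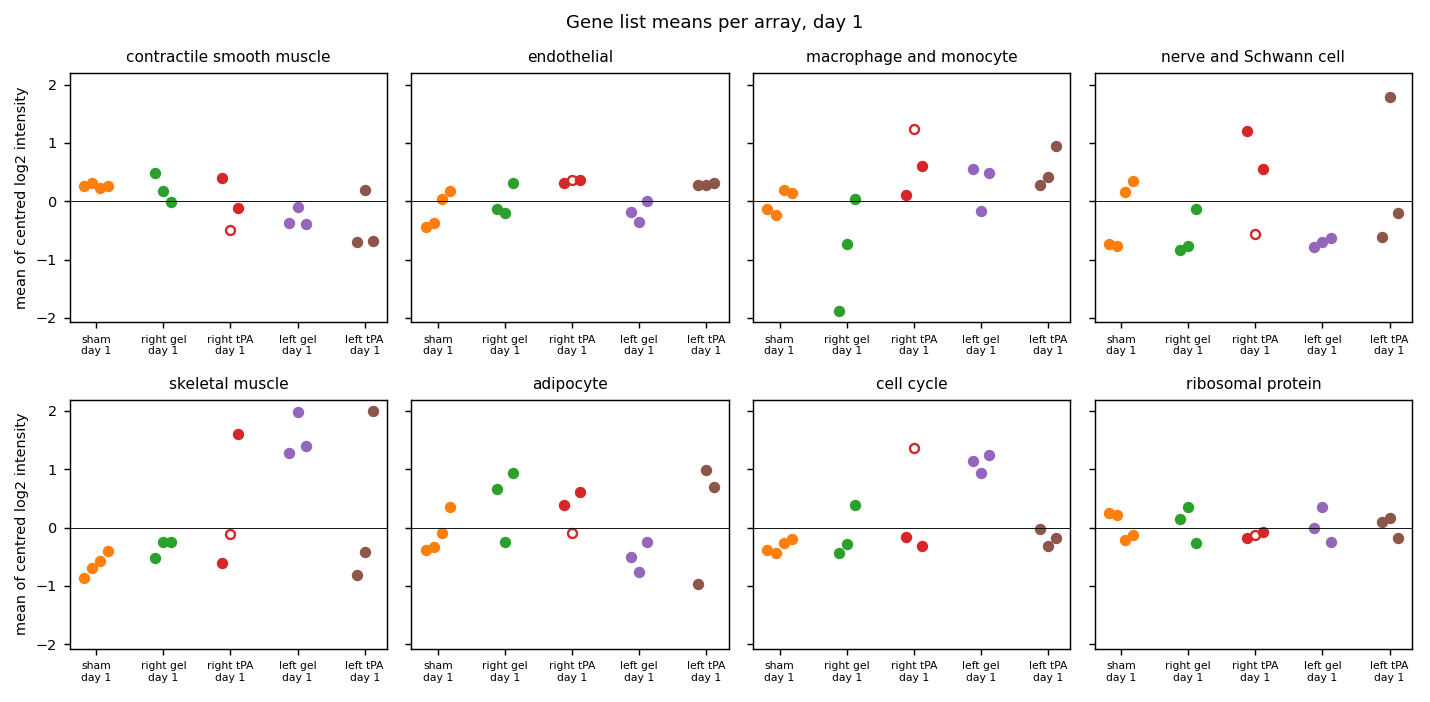
Mean per array of 8 gene lists on day 1, each gene's log2 intensity centred on its mean over all arrays, for sham, right gel, right tPA, left gel and left tPA arteries; each point is an array and the open circle is right tPA replicate 2. Replicate 2 stands with the injured left gel arteries in the cell cycle list (1.36 against 0.94 to 1.25), while replicates 1 and 3 lie at -0.17 and -0.32, among or near the sham arrays.

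Cell cycle genes depended on replicate 2. With all arrays 25 of 28 were above 0 and the median was 0.61. Without replicate 2, 16 of 28 were above 0 with a median of 0.11, like the 0.11 of all genes. After scaling to one median it was -0.18, like the -0.18 of all genes. Cdc20, an activator of the anaphase-promoting complex, read 147.7, 721.7 and 142.4 against 63.5 to 105.5 (1.5, adjusted p = 0.21, and 0.72 without replicate 2, adjusted p = 0.633). Both Cdc20 and Mcm7, a subunit of the replicative helicase, were among the 6 genes wholly above sham. Mcm7 read 785.7, 628.8 and 494.1 against 218.2 to 337.2 (1.07 in both fits, adjusted p = 0.34 and 0.467).

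Acute phase genes were above 0 in 15 of 19 (median 0.46) and 16 of 19 without replicate 2 (0.41), with medians of 0.19 and 0.12 after scaling to one median, and 5 lay wholly above sham. Cp, ceruloplasmin, the copper carrier of plasma, read 1382.4, 640.8 and 1437.8 against 371.0 to 462.5, a difference of 1.37 (SE 0.37, adjusted p = 0.116) and of 1.75 without replicate 2 (adjusted p = 0.0798). Hp, haptoglobin, which binds free haemoglobin, read 330.4, 424.1 and 289.4 against 103.8 to 193.8 (1.2, adjusted p = 0.407). Among cytokine genes, Ccl11, the eosinophil chemokine eotaxin, read 92.8, 11.4 and 293.0 in right tPA arteries and 509.4 to 1509.9 in sham arteries, wholly below them (-3.37, SE 0.89, adjusted p = 0.115, and -2.43 without replicate 2, adjusted p = 0.368). Right gel arteries were lower still, at 10.4, 5.0 and 32.7.

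Of the 31 vasoactive genes, 22 were above 0 (median 0.17, and -0.10 after scaling to one median, where all genes gave -0.15). Without replicate 2, 21 were above 0 (0.39, and 0.10 after that scaling), and 9 lay wholly above sham instead of 3. Adora2b, an adenosine receptor, read 90.7, 141.5 and 60.9 against 24.5 to 41.5 (1.55, adjusted p = 0.131). Ece1, the enzyme that matures endothelin, read 1843.8, 1052.3 and 2078.6 against 876.1 to 1120.9 (0.68, adjusted p = 0.225, and 0.98 without replicate 2, adjusted p = 0.0798). Sterol and fatty acid synthesis genes were above 0 in 14 of 19 in both fits, with medians of 0.52 and 0.48, or 0.25 and 0.19 after scaling to one median. Fasn, fatty acid synthase, read 486.2, 344.1 and 419.0 against 238.4 to 381.4 (0.52, adjusted p = 0.389), and Insig1, which restrains sterol synthesis, 2435.0, 1445.5 and 953.6 against 744.2 to 1025.7.

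Ribosomal protein genes, which are among the brightest on the array, were below 0 in most cases. Of 37, 10 were above 0 with a median of -0.26, beside -0.15 in the 1166 brightest probe sets, and 12 lay wholly below sham. Rpl27 read 1933.7, 4064.6 and 3270.0 against 4323.4 to 5047.1 (-0.71, adjusted p = 0.319). After quantile normalization the median was -0.07, and it turned to 0.03 without replicate 2. Rpl17 went the other way, with 307.9, 234.7 and 383.7 against 83.7 to 115.5 (1.61, adjusted p = 0.0749), and sham arteries were also below the 312.3 to 439.3 of intact ones.

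In the other lists 0 genes passed but Igfbp5, and most medians changed with the scaling or with replicate 2. Lymphocyte genes were above 0 in 9 of 12 (median 0.31) and in 8 without replicate 2 (0.08), with medians of 0.04 and -0.21 after scaling to one median. Neutrophil genes were above 0 in 4 of 5 in both fits (0.40 and 0.53, or 0.13 and 0.24 after that scaling). Cytokine and chemokine genes were above 0 in 18 of 24 (0.38) and in 14 without replicate 2 (0.13), or 0.12 and -0.16 after that scaling. Growth factor genes were above 0 in 19 of 32 (0.14) and 20 (0.23), and after that scaling the medians were -0.13 and -0.06.

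Several medians lay on opposite sides of 0 with all arrays and without replicate 2. These were immediate early genes (0.16 and -0.06, with 13 and 12 of 25 above 0), mitochondrial genes (0.08 and -0.06, with 16 and 12 of 30), matrix protease genes (0.05 and -0.02, with 7 and 6 of 14) and glucocorticoid response genes (-0.07 and 0.05, with 8 and 10 of 18). The antigen presentation median was 0.08 and 0.01, with 10 and 9 of 17 above 0. All 5 of these medians were below 0 in both fits after scaling to one median, as were those of all genes (-0.15 and -0.18). Ion channel genes (-0.10 and -0.12, with 12 and 11 of 25 above 0), heat shock genes (-0.16 and -0.09, with 10 and 12 of 26) and matrix genes (-0.26 and -0.05, with 13 and 13 of 29) were below 0 in both fits, and the heat shock median turned to 0.02 with quantile normalization without replicate 2.

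Collagen probe sets held readings near 0 in some arrays, 3 of the 4 sham arrays for Col1a2 and right tPA replicate 3 for Col3a1. Col1a2 read 3164.7, 2868.4 and 2849.8 in right tPA arteries and 186.3, 17.4, 12.1 and 12.8 in sham arteries, where intact arteries ran from 141.0 to 5338.6 (fitted difference 6.24, SE 1.88, adjusted p = 0.173, which depends on the lower limit). Col3a1 went the opposite way, with 204.7, 3043.9 and 8.5 against 1360.3 to 5795.3 (-3.85, SE 1.56, adjusted p = 0.351). Both encode fibrillar collagens of the arterial wall, and 55 bright probe sets of the array had such readings somewhere in the series.

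Against right gel arteries, which asks what differed between uninjured arteries of rats given tPA or plain gel, 0 probe sets (0.0%) passed with all arrays and 0 without right tPA replicate 2 (limma), with 558 and 498 at an unadjusted p under 0.05 (9.58% and 8.55%). Leaving out right gel replicate 3, the array with 6.54% of its values at the lower limit, gave 4 passing, and leaving out right tPA replicate 1 gave 3. Without 4 tPA arrays that stood apart from their groups, of which right tPA replicate 2 was the only one compared here, 13 passed, 12 of them higher. The genes that led without passing were Cd247, the zeta chain of the T cell receptor complex, and Lama3, a laminin chain. Lama3 read 70.3, 73.9 and 75.8 against 3.2, 31.1 and 14.1 (1.51, adjusted p = 0.114). The right gel readings of 3.2 and 14.1 lay below the lower limit of measurement. The difference of Lama3 ran from 0.0 to 1.65 across the alternative settings and arrays left out, so its size depended on them. Cd247 read 238.8, 122.6 and 304.5 against 83.3, 50.9 and 59.6 (1.71, adjusted p = 0.114). Of the lower ones, Cox4i2 came first, followed by Plb1, a phospholipase, with 16.1, 64.1 and 25.3 against 100.2, 71.1 and 213.3 (-1.78, adjusted p = 0.197), and Slc28a1, a nucleoside transporter, with 184.8, 173.8 and 129.7 against 312.7, 265.9 and 263.8 (-0.80, adjusted p = 0.223).

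Against intact arteries, 36 probe sets passed (0.618%), 29 higher (0.498%) and 7 lower (0.12%). Without right tPA replicate 2, 9 passed (0.154%), 8 higher (0.137%) and 1 lower (0.0172%). Leaving out intact replicates 1 to 5 in turn left 9, 18, 16, 19 and 10, leaving out replicate 6 left 26, and leaving out right tPA replicates 1 and 3 left 5 and 18. Scaling to one median gave 13 higher and 8 lower. Among the genes named above, Cd247 (1.82, adjusted p = 0.00758), Cd8a (3.32, adjusted p = 0.0419) and Tfpi (1.81, adjusted p = 0.0418) were higher than in intact arteries. Cd8a, a chain of the co-receptor of cytotoxic T cells, read 415.8, 228.3 and 222.3 in right tPA and 37.7, 172.0, 16.1 and 18.0 in sham arteries. Intact arteries read 14.9 to 51.7, and the difference of right tPA from sham arteries was 2.67 (adjusted p = 0.225). Other T cell genes of the lymphocyte list differed less from sham, with 0.34 for Cd8b, 0.27 for Cd3g and 0.09 for Cd4, and none of these passed.

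The array labelled right tPA day 1 replicate 2 was closer to 2 of the 3 injured left gel arrays than to its own group. The SD of its log2 differences was 0.814 and 0.803 against left gel replicates 1 and 3, 1.012 against left gel replicate 2, and 1.025 and 0.95 against right tPA replicates 1 and 3. Against left tPA replicates 1, 2 and 3 it was 0.998, 1.037 and 1.097, each above the 0.95 to right tPA replicate 3. Left tPA replicate 2 was 0.972 and 0.868 from right tPA replicates 1 and 3. Of 3546 genes, 55 were over 4-fold higher and 84 over 4-fold lower in right tPA replicate 2 than the mean of the other 2 right tPA arrays. Other arrays of the group were also nearer to some arrays of other groups than to their own: replicate 3 was 0.714 from intact replicate 6 and 0.81 from sham replicate 4, replicate 1 was 0.844 from sham replicate 2, and replicate 2 was 0.893 from intact replicate 6 and 0.919 from sham replicate 4. The counts of genes over 4-fold apart were 49 and 49 for replicate 1 and 39 and 23 for replicate 3. Genes are named here by these differences, as a description with no test.

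The 8 highest included Top2a, the DNA topoisomerase of dividing cells, with 3691.6 in replicate 2 against 326.1 and 377.3 in replicates 1 and 3. Left gel arteries read 3320.9, 2229.9 and 3028.4 for it and left tPA arteries 210.1, 332.9 and 587.7. Mmp9, a gelatinase of invading leukocytes and activated smooth muscle, read 850.8 against 69.5 and 43.8, and left gel arteries read 1075.5, 87.8 and 1101.7. Mmp12, the elastase of macrophages, read 721.1 against 71.8 and 48.1, above the 145.8 to 244.3 of left gel arteries. Tnn, the matrix protein tenascin N, read 1255.9 in replicate 2 and at most 154.5 in any sham, left gel or left tPA array of day 1. Crabp1, a retinoic acid carrier, read 466.3 against 33.2 and 56.3, and Rgs18, a regulator of G protein signalling in platelets and leukocytes, 366.5 against 63.2 and 24.2. Col3a1 and Myl6b completed the 8 through readings near 0 in replicate 3.

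The 8 lowest included genes known from nerve. Scn7a, a sodium channel of Schwann cells, read 61.2 in replicate 2 against 3635.5 and 1064.2, and Prph, the neuronal filament protein peripherin, 32.0 against 830.3 and 340.4. Aldoc, the aldolase of neural tissue, read 35.6 against 1836.6 and 543.7, and Itgb4, an integrin subunit of epithelia and Schwann cells, 28.6 against 820.7 and 449.4. Left gel arteries read 3.5 to 6.5 for Scn7a and 10.3 to 28.0 for Itgb4. Sham replicates 1 and 2 were low for Scn7a as well (4.97 and 5.56 on the log2 scale, against 5.94 in right tPA replicate 2), unlike sham replicates 3 and 4 (12.24 and 12.04). Spock2, Tspan8, Eln and Apoe made up the rest, and the readings of Eln (59.6) and Apoe (10.5) in replicate 2 were in the same class of readings near 0 on an otherwise bright probe set. On the left side of the same group, left tPA replicate 2 read 5787.4 for Scn7a, 1955.6 for Aldoc and 15.9 for Mmp9, whereas left tPA replicates 1 and 3 read 2.9 and 963.5, 15.0 and 203.1, and 800.5 and 887.4.

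**Figure D5:**
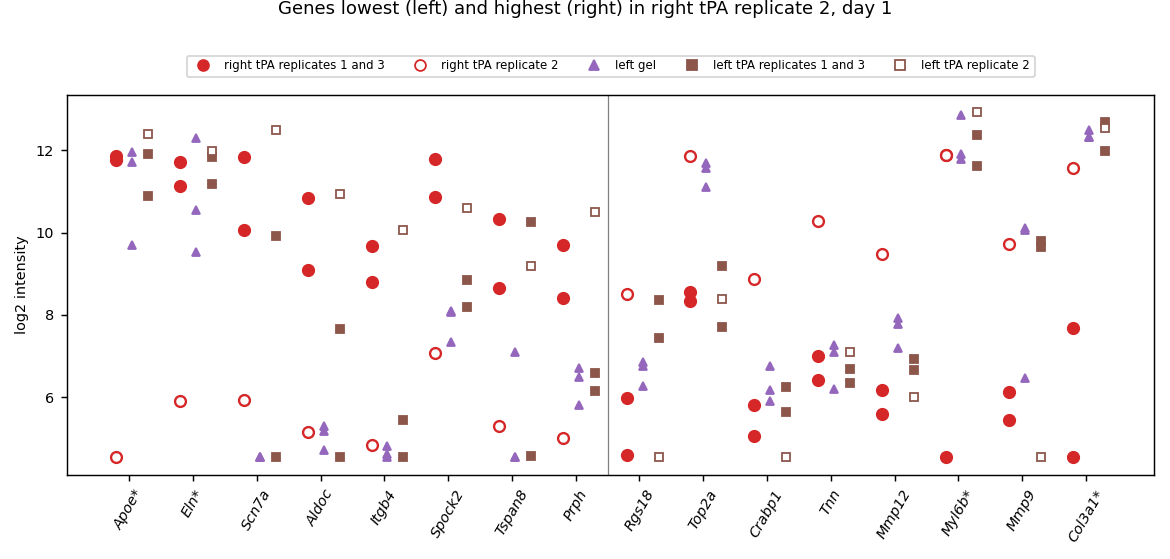
Log2 intensity of the 8 genes lowest (left of the line) and the 8 highest (right of it) in right tPA day 1 replicate 2 relative to replicates 1 and 3, with injured left gel and left tPA arteries of day 1 beside them; asterisks mark probe sets with readings near 0 on single arrays. For Top2a the open red circle of replicate 2 lies with the left gel arteries at 11.85, against 8.35 and 8.56 in replicates 1 and 3, and left tPA replicate 2 (open square) lies high in the nerve genes.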

How the data were processed

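RNA of pooled carotid arteries was hybridised to 1-colour Affymetrix rat arrays, per the labels. The authors deposited a linear intensity per probe set and array, by an algorithm not stated here. Of 8799 probe sets, 59 controls were dropped. Values below the 20th percentile (23.3) were set to it, which understates changes of dim genes, before log2 was taken. After dropping the 2913 dimmest probe sets, 5827 were tested with limma 3.58.1 (R 4.3.3): 11 group means over the 40 arrays shared one moderated spread, and p-values were adjusted by Benjamini-Hochberg over every probe set. The code was tested on simulated data. The platform annotation gave 7006 probe sets 1 gene symbol, and the brightest probe set stands for a gene. Members, the 25 gene lists and settings were chosen with earlier results of these data known. Named genes are, per direction and fit, up to 8 passing against sham (4 against right gel), or the 5 with the smallest p (against right gel, 4) where none passed; up to 4 members of each list by smallest p; Plat, Plau, Plaur, Cyp2c11, Igfbp5, Ccl11 and Rnase1; and the 8 highest and 8 lowest genes of replicate 2. Acta2, Myh11, Pecam1, Lyz2 and Pros1 and the second and unnamed probe sets were added after their values were seen. No hybridisation batch is stated here.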

Additional observations from a re-analysis of the deposited data

Results flagged for a closer look

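Of 115 sets of 4 sham day 1 values tested for a value far from the other 3, 9 held one. The nominal rate of about 1 in 20 assumes independent values and no lower limit. The sham arrays formed pairs and some values lay at the lower limit, so the 9 cannot be read against that rate. On the log2 scale, Enpp3 read 5.95 in sham replicate 1 and 4.54, the lower limit, in the others, and Col1a2 read 7.54 there against 4.54. Plau was low in replicate 1 (7.93 against 8.31 to 8.37). In replicate 2, Dbp (7.95 against 8.23 to 8.27) and Cs, citrate synthase (4.94 against 6.45 to 6.51), were low. Mcm7 was low in replicate 3 (7.77 against 8.34 to 8.40). In replicate 4, Ptgfr, a prostaglandin receptor, was high (6.02 against 5.16 to 5.28), Rpl27 was low (12.08 against 12.27 to 12.30), and the 3′ to 5′ signal ratio of actin was 16.26 against 20.53 to 21.11.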

How the results depend on the processing

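The number of probe sets passing moved with the settings. Against sham, 10 passed with all arrays. That count was 18 with median scaling, 17 with a floor at the 40th percentile, 58 with array weights, 26 without the 4 tPA arrays that stood apart, 1 with the sham pairs averaged, and 2 to 8 when 1 array was left out. The 5 of the fit without replicate 2 became 0 with quantile normalization, 8 with median scaling, 11 with no filter on dim probe sets, 1 with the filter at 50%, 24 with the floor at the 40th percentile, 34 with array weights, 22 with only the groups compared, 26 without the 4 tPA arrays, 1 with the sham pairs averaged, and 2 to 7 when 1 array was left out. Against right gel, 0 became 13 without the 4 tPA arrays in both fits, and 0 to 4 when 1 array was left out. Against intact, 36 became 21 with median scaling and 18 with no filter, and 5 to 26 when 1 array was left out, and the 9 without replicate 2 became 40 without the 4 tPA arrays. The cause was not tested.

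Same-numbered arrays of right tPA and sham rats did not clearly deviate together (correlations 0.107, -0.064 and 0.036), and the main fits did not pair samples by number. So few correlations cannot exclude a batch shared by number. A fit with the number as a replicate block gave 9 passing (5 higher and 4 lower), and 4 without replicate 2. Some differences of named genes turned direction. Plau was -0.09 and Plaur -0.13 without right tPA replicate 2 and without the 4 tPA arrays, and leaving out single arrays gave -0.09 to 0.88 for Plau, -0.13 to 1.21 for Plaur and -1.91 to 0.05 for Mmp12. As the mean of its probe sets Zfp36 was -0.02, and -0.07 without replicate 2. In the fit without replicate 2, leaving out 1 more array gave -0.58 to 0.33 for Plaur, -0.08 to 5.53 for Tnnc2, -0.06 to 5.17 for Atp2a1, -0.28 to 3.46 for S100a9 and -0.67 to 2.0 for S100a8. Of the other alternatives for named genes, 3490 kept direction and side of the threshold, 101 lost a call and 77 gained one. With 2 or 3 right tPA arrays, even differences well above the spread between them could go undetected. Ctss, with a difference from sham of 1.18 and no overlap between the groups, did not pass (limma, adjusted p = 0.171).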
